A study of Drosophila melanogaster with 12 samples.

Results

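The nxf2 CRISPR mutant was compared with W1118 by RNA-seq of Drosophila melanogaster ovaries. The comparison was fixed by the labels and used 4 of the 12 libraries of the series, 2 labelled nxf2 mutant and 2 labelled W1118, and all 15446 genes of the deposited count table. The mutant carries the genotype nxf2 -/- and was made with CRISPR/Cas9, and W1118 is labelled wild type. The sources used here do not give the lesion, the number of independent lines or the genetic background of the mutant. Flies of both groups were 3 to 5 old, with no unit given, were raised at 25 °C on standard food and were fed yeast. Whole ovaries were used, so fewer cells of a type and less RNA per cell cannot be told apart in any value below. The other 8 libraries served to place single results and to estimate the spread. They were 2 each of attp2, another wild-type stock, of a germline-specific nxf2 knockdown, and of an nxf2 heterozygote and an nxf2 mutant whose genotype labels add a tethered Panx FL10B.

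The protein made by nxf2 belongs to the nuclear RNA export factors. With Panx, its partner, and the cofactor Nxt1 it acts downstream of Piwi, the Argonaute protein that piRNAs guide to nascent transposon transcripts in the nucleus, and the complex directs silencing chromatin to these loci. The related factor sbr (Nxf1) exports messenger RNA in general. An ovary holds germline cells, which make the oocyte and its maternal RNAs, and somatic follicle cells, which secrete yolk proteins, the vitelline membrane and the chorion.

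The W1118 libraries held 3811630 and 6467850 counts and the mutant libraries 8817078 and 7661682. Expression is given as CPM, the counts of a gene per 1000000 counts of its library, scaled by TMM factors, first replicate 1 and then replicate 2 of each group. A gene was called when edgeR's quasi-likelihood test gave a Benjamini-Hochberg adjusted p under 0.05 over all 8638 tested genes, and every adjusted p of a gene below comes from that test unless another tool is named. A log2 fold change is mutant minus W1118, with its standard error (SE). The 2 mutant libraries differed more from each other than the 2 of W1118, by chi-square over its degrees of freedom (12.15 against 1.621). The labels do not tie replicates to separate crosses, so the p-values measure the spread between these libraries, which may be technical.

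In all, 2318 genes were called, 26.8% of those tested. Of these, 1297 were higher in the mutant (15.0% of tested genes) and 1021 lower (11.8%). In each of the 2318, both libraries of 1 group lay above both of the other. A lack of overlap therefore adds no support to a call. A further rule on size kept 506 genes at least 2-fold higher (5.86%) and 153 at least 2-fold lower (1.77%). At 4-fold the balance was more uneven, with 238 higher (2.76%) and 59 lower (0.683%). Leaving out W1118 replicate 1 gave a total of 1056, leaving out W1118 replicate 2 gave 835, and mutant replicates 1 and 2 gave 1263 and 1698. No count below is therefore independent of which libraries were in the fit.

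The targeted gene kept part of its RNA in the mutant. nxf2 stood at 69.5 and 68.8 CPM in the W1118 libraries and at 29.9 and 33.6 CPM in the mutant libraries (log2 -1.12, SE 0.14, adjusted p = 0.000152). The groups did not overlap, and the other groups averaged 42.6 CPM in attp2, 18.1 CPM in the knockdown, and 35.2 and 30.2 CPM in the heterozygote and the mutant with Panx FL10B. Against attp2 the fall of nxf2 was smaller (log2 -0.43, adjusted p = 0.0196). Panx, listed as CG9754, was at 47.4 and 44.1 CPM in W1118 and at 40.5 and 39.1 CPM in the mutant, a difference that did not pass (log2 -0.20, SE 0.11, adjusted p = 0.217). Nor did Nxt1 (log2 0.14, adjusted p = 0.668), sbr (-0.08, adjusted p = 0.585) or piwi (0.10, adjusted p = 0.851) pass. Against attp2 in place of W1118, Panx (log2 -1.85), sbr (-0.26) and piwi (-2.08) were called lower. Of 15 listed factors of piRNA-guided transcriptional silencing, 5 were called lower (33.3%), the mutated nxf2 among them, and 0 higher. Among all tested genes 11.8% were lower. The median log2 of the 15 was -0.17, against 0.04 over all tested genes. With the dependence on transcript length described below removed, 3 of the 15 were lower, nxf2 again among them, where 9.83% of all tested genes were. Without W1118 replicate 1, W1118 replicate 2, mutant replicate 1 and mutant replicate 2 in turn, 2, 1, 2 and 3 were called lower.

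The genes beside nxf2 on chromosome arm 3L fell with it. Of the 20 tested genes nearest to nxf2, 10 on each side, 13 were called lower and 2 higher, with a median log2 of -0.71. Among the 30 tested genes next outward 4 were lower, and among the 50 after these 8 were. Farther along the arm 9 of 100, 22 of 200 and then 155 of 1239 genes were lower. The falls ran through a stretch of 20 tested genes from CG33158 to CG32164, whose ends were chosen after the values were seen, in which 15 were lower, nxf2 included, and 2 higher. The 15 had a median log2 of -0.90 and lay between -2.37 and -0.48. Over all 8356 windows of 20 tested neighbours on the chromosome arms, the median window held 2 genes called lower and the fullest one away from nxf2 held 8.

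CG42514 fell furthest in this stretch. Its level was 16.2 and 13.9 CPM in W1118 and 2.91 and 2.86 CPM in mutant ovaries (log2 -2.37, SE 0.23, adjusted p = 2.06e-05). CG43373 went from 12.1 and 8.58 CPM to 2.46 and 1.82 CPM (log2 -2.23, SE 0.31, adjusted p = 0.00028). In both genes every mutant library lay below every W1118 library, as in every gene called lower. aos, which encodes the secreted Egfr antagonist argos, was at 20.3 and 20.4 CPM in W1118 and at 10.6 and 9.48 CPM in the mutant (log2 -1.01, adjusted p = 0.00154). Smn, a gene for assembly of spliceosomal ribonucleoproteins and the direct neighbour of nxf2 among tested genes, had 47.6 and 42.3 CPM against 25.8 and 26.4 CPM (log2 -0.78, adjusted p = 0.00225). tra, the sex-determination splicing regulator, fell by 1.01 on the log2 scale, from 20.6 and 18.4 CPM to 9.5 and 9.74 CPM. l(3)73Ah fell by 1.03, from 77.5 and 78.7 CPM to 34.3 and 42.3 CPM. These 6 genes stayed called under every other setting tried, each library left out in turn and attp2 as control among them. Rpn12, a proteasome lid subunit, fell by 0.86, and its call was lost without W1118 replicate 2 (adjusted p = 0.0652) and without mutant replicate 1 (0.0639).

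The neighbours were tested in the knockdown as well. nxf2 itself was 1.23 lower there on the log2 scale. Of the same 20 nearest genes, with a median log2 of -0.12, 1 was called lower than in attp2, against 7.7% of all tested genes. That gene was l(3)73Ah (log2 -0.49, adjusted p = 0.0157), which also fell in the mutant. In the Panx FL10B background, both libraries of the nxf2 mutant lay below both of the heterozygote for 15 of the 20 genes of the stretch, where 35.4% of all tested genes did so. tra, for example, averaged 15.7 CPM in that heterozygote and 9.35 CPM in that mutant, and CG42514 7.66 and 3.5 CPM. With attp2 as the control of the mutant, 12 of the 20 nearest genes were lower, where 29.2% of all tested genes were. CG33158 (log2 -0.77) and CG32164 (-0.79), at the ends of the stretch, were no longer called with that control (-0.07 and -0.06). In place of 13, 9 were lower when W1118 replicate 1 was left out, 8 for W1118 replicate 2, 9 for mutant replicate 1 and 10 for mutant replicate 2. Reads of overlapping genes cannot be separated here, since the sources used here do not say whether counting used strand.

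**Figure D1:**
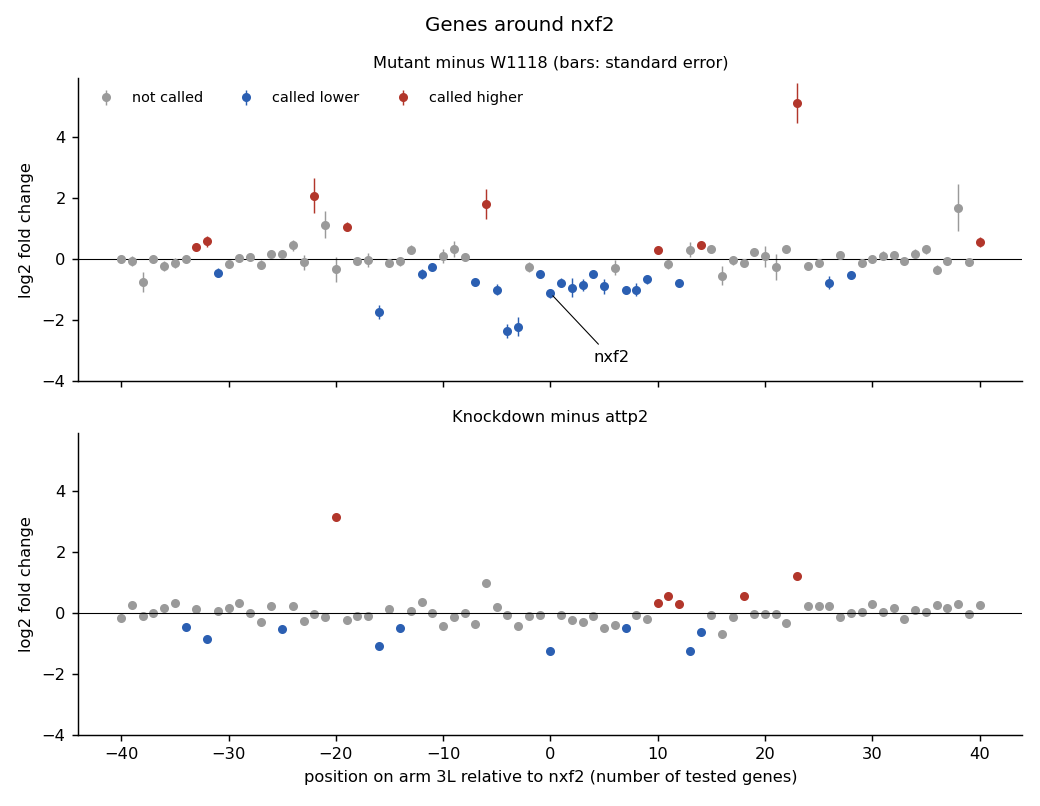
Log2 fold change of tested genes on arm 3L against their position relative to nxf2, counted in tested genes, for mutant minus W1118 (top, bars are standard errors) and knockdown minus attp2 (bottom), with called genes in red (higher) or blue (lower). Of the 20 genes nearest nxf2, 13 are called lower in the top panel and 1 in the bottom panel.

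Among the largest rises were genes with no count in either W1118 library. Of the 64 genes that rose at least 4-fold with no overlap between the groups and at least 10 CPM in the mutant, 11 were of this kind. CG15483, on arm 2L, was at 13.6 and 15.1 CPM in the mutant libraries and at 0 in all 10 other libraries, at least 49.8-fold higher, with the W1118 group taken at a floor of 3 counts in all (adjusted p = 0.000115). CG13872, on 2R, was likewise at 0 outside the mutant, with 13.1 and 9.87 CPM there, at least 39.9-fold higher (adjusted p = 0.000207, and not called by DESeq2 at 0.268). CG4970 had 97.2 and 44 CPM in the mutant against at most 0.431 CPM as the mean of any other group. CG31760 had 12.9 and 79.1 CPM against at most 0.294 CPM, so its 2 mutant libraries were far apart. Its call (adjusted p = 0.0209) was lost without W1118 replicate 1 (0.0585) or 2 (0.0912). Of the 64 genes, 6 stayed under 10% of their mutant level in all 4 other groups, and these were chosen with all groups in view.

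Other such genes were shared with the mutant that carries Panx FL10B. dys, a bHLH-PAS factor gene at 66.1 and 73.5 CPM in the mutant, averaged 81.2 CPM in the mutant with Panx FL10B, 18.2 CPM in the heterozygote with it and at most 0.0922 CPM in attp2 and the knockdown. CG9766 was at 14.6 and 13.2 CPM in the mutant, at least 48.4-fold higher than W1118 (adjusted p = 2.07e-06). Its means were 15.5 CPM in the mutant and 5.34 CPM in the heterozygote with Panx FL10B, and at most 0.0922 CPM in attp2 and the knockdown. Gyc-89Da averaged 13.4 CPM in the mutant with Panx FL10B and 2.4 CPM in its heterozygote, and CG13594 17.4 and 6.44 CPM. For the synaptotagmin gene Syt4 and for CG31202 the knockdown was high as well, at 49.1 and 78.5 CPM, with 1.92 and 0.184 CPM in attp2. Across the 64 genes, the mean was at least 50% of the mutant level in the mutant with Panx FL10B for 36, in its heterozygote for 35, in the knockdown for 22 and in attp2 for 21. Whether a gene high in other stocks reached the mutant through its background cannot be told apart from an effect of nxf2.

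The largest falls were in part low in other wild-type flies as well. Of 19 genes that fell at least 4-fold with no overlap and at least 10 CPM in W1118, the mean of attp2 reached 50% of the W1118 level for 6. CG13532, on 2R, was at 20.3 and 17.5 CPM in W1118 and had no count in the mutant, at least 105-fold lower (adjusted p = 0.00106), with 2.83 CPM in attp2 and 0 in the knockdown. The Hox gene Dfd was at 67.9 and 73.5 CPM in W1118, while the means of the other 5 groups stayed at or under 0.467 CPM. Against attp2 its difference was -0.56 on the log2 scale and did not pass (adjusted p = 0.688). mthl8, a methuselah-like receptor gene on 3L, went from 12.9 and 13.6 CPM to 0.224 and 1.17 CPM (log2 -4.28, SE 0.44, adjusted p = 2.7e-05) and stood at 7.37 CPM in attp2. Idgf2, which encodes a secreted imaginal disc growth factor, went from 32.7 and 30.5 CPM to 5.48 and 2.73 CPM (log2 -2.91, SE 0.25, adjusted p = 5.65e-06), with means of 24.3 CPM in attp2 and 21.8 CPM for the knockdown. CG2187 went from 43.2 and 50.4 CPM to 7.04 and 9.09 CPM (log2 -2.55) and was at 8.51 CPM in the knockdown. In mthl8, Idgf2 and CG2187 the calls held under every setting tried.

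**Figure D2:**
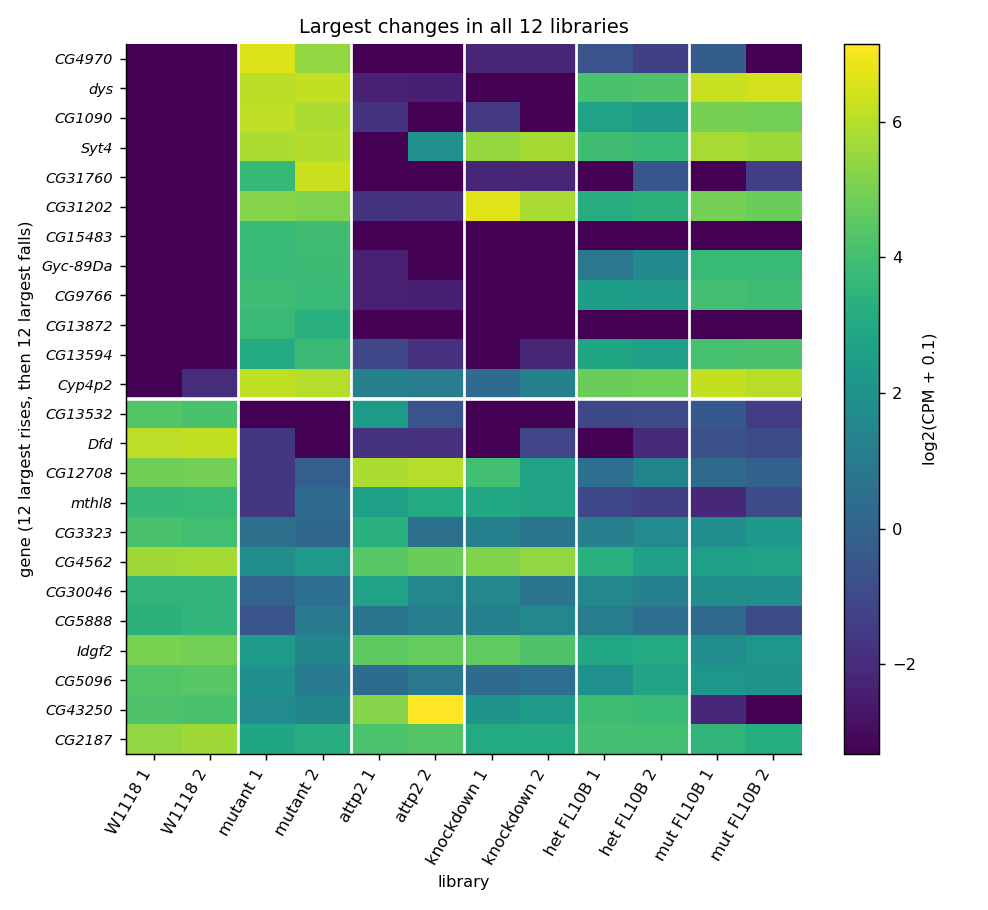
Level of the 12 genes with the largest called rises and the 12 with the largest called falls (at least 10 CPM in the higher group, no overlap between W1118 and mutant) in all 12 libraries, as log2(CPM + 0.1) in colour. CG15483 and CG13872 are at 0 outside the mutant columns, dys and CG9766 reappear in the mutant with Panx FL10B, and Dfd is high in the W1118 columns alone.

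Neighbouring genes also rose together. Runs of at least 3 tested neighbours that all changed at least 2-fold in 1 direction numbered 15 for rises, with 54 genes, and 2 for falls, with 6 genes. Of the 15, 6 runs with 22 genes were made up of small nuclear or nucleolar RNA copies alone, and 1 of the 2 falling runs was aos, CG42514 and CG43373 beside nxf2. With the length trend described below removed, 48 of the 54 genes were called, 17 of the 22 small RNA genes among them. How many such runs chance would give was not tested. The delta-class glutathione S-transferase cluster on 3R, whose enzymes conjugate glutathione to toxins, was 1 such run of 5 genes. GstD1, its most abundant member, went from 29.1 and 32.2 CPM to 321 and 399 CPM (log2 3.54, SE 0.13, adjusted p = 1.1e-09). GstD9 went from 2.32 and 1.99 to 17.7 and 17.4 CPM and GstD3 from 10.8 and 12.1 to 36.2 and 34.5 CPM. GstD2 had 2 counts in W1118 and 136 in the mutant, a ratio of 42.5 (95% counting interval 11.6 to 355). GstD10 rose by 2.41, a call lost without W1118 replicate 1 (adjusted p = 0.0732) or 2 (0.0574). All 5 genes were higher in every mutant library than in every W1118 library, as was every gene called higher. GstD1 was yet higher in attp2, at 446 CPM, so that the mutant was lower against that control (log2 -0.31, adjusted p = 0.0249).

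Of 3 neighbouring P450 genes on 2R, Cyp4p2 had 1 count in W1118 and 71.2 and 63.1 CPM in the mutant, a ratio of 703 (95% counting interval 126 to 27800). Cyp4p1 rose by 3.17, and Cyp4p3 by 2.14 with its call lost without W1118 replicate 2 (adjusted p = 0.108). Cyp4p2 was at 2.12 CPM in attp2 and at 1.7 CPM after knockdown. Among ovaries with Panx FL10B, the nxf2 mutant averaged 68.3 CPM. The nxf2 heterozygote, at 27.7 CPM, also lay above W1118, so high Cyp4p2 was not limited to nxf2 mutants. On the X chromosome, the potassium channel gene Sh went from 0.772 and 0.766 CPM to 15.4 and 14.7 CPM (log2 4.26, SE 0.36, adjusted p = 5.37e-06), next to CG12672, with no W1118 count and 5.81 and 8.31 CPM, which makes it at least 24.5-fold higher, and CG6867, with 2 counts and then 5.81 and 5.45 CPM, a ratio of 29.4 (95% counting interval 7.92 to 246). All 3 were at most 2.14 CPM as the mean of any other group, so this run was high in the mutant libraries and in no other group. Near the base of 2R, l(2)41Ab went from 4.89 and 6.74 CPM to 104 and 90.9 CPM (log2 4.02, SE 0.18, adjusted p = 5.48e-09). In other groups l(2)41Ab averaged 30.1 CPM in the knockdown and 5.3 CPM in attp2. With Panx FL10B it averaged 44.1 CPM in the mutant and 15.4 CPM in the heterozygote. Its neighbour Maf1 rose by 1.00, from 26.8 and 30.9 to 63.7 and 52.7 CPM. SPR, the sex peptide receptor gene on X, had 3 counts in W1118 and 7.94 and 7.53 CPM in the mutant, a ratio of 26.9 (95% counting interval 9 to 132). Of the 57 tested glutathione transferase, P450 and UDP-glycosyltransferase genes, 17 were higher (29.8%) and 11 lower (19.3%), with a median log2 of 0.15. Among all tested genes 15.0% were higher and 11.8% lower, or 11.8% and 9.83% with length removed. For the 57 genes it was 16 and 12 with length removed and 14 and 23 against attp2. Without W1118 replicate 2, 12 were higher and 6 lower, and without mutant replicate 1, 16 and 7. Falls included the prostaglandin and glutathione enzyme gene GstS1 (log2 -0.93, from 265 and 276 to 126 and 159 CPM) and Cyp12d1-p (-1.66).

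Short transcripts were higher and long ones lower in the mutant. The median log2 fold change went down through 8 classes of exonic length, from 0.60 for transcripts of up to 300 bases to -0.29 for those over 6000 bases. In the shortest class 38.6% of tested genes were called higher and 6.86% lower, and in the longest 8.1% and 36.6%. The knockdown had the opposite slope against attp2, with medians of -0.16 and 0.28 in the same classes. The labels give the same size range, 250 to 500 bp, and the same 1 µg of total RNA for every library. RNA quality is not given per library. The part of RNA quality and of size selection in this slope was not tested. With the length trend of each library removed, an alternative added after the slope was seen, 1019 genes were higher (11.8%) and 849 lower (9.83%). Of the 2318 calls 1539 stayed in the same direction.

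**Figure D3:**
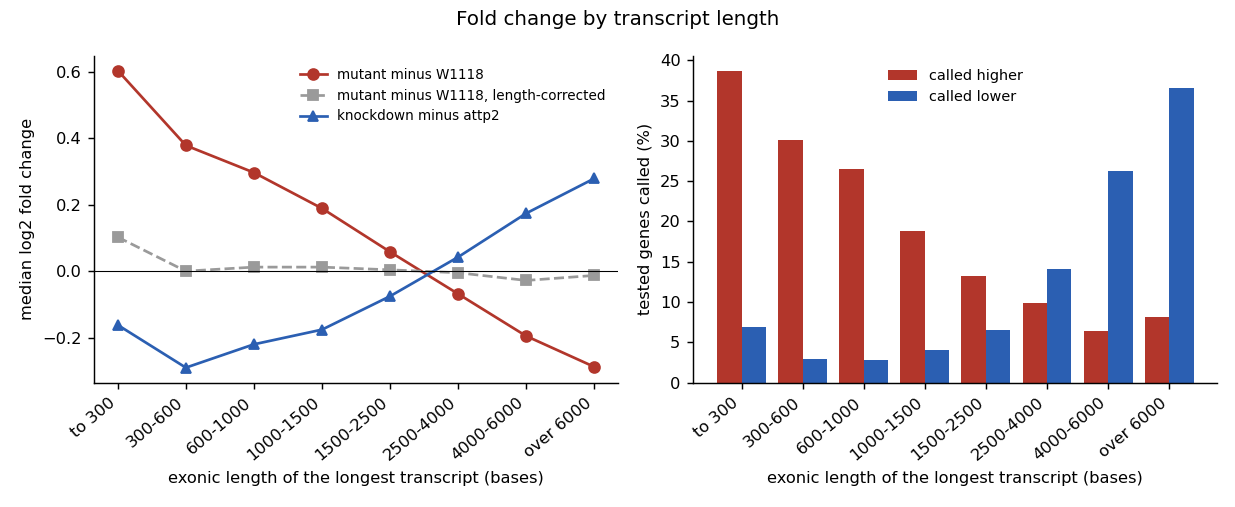
Left, median log2 fold change by class of exonic length for mutant minus W1118, for the same with each library's length trend removed, and for knockdown minus attp2. Right, share of tested genes called higher or lower in the mutant, with 38.6% higher in the shortest class and 36.6% lower in the longest.

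Ribosomal protein genes, whose transcripts are short, were higher in number before that correction. Among all tested genes 15.0% were higher and 11.8% lower, or 11.8% and 9.83% with length removed. Of 89 tested cytoplasmic ribosomal protein genes 53 were higher (59.6%) and 3 lower (3.37%), with a median log2 of 0.41. Once length was removed, 27 were higher and 8 lower (median 0.12). The count of 53 was 31, 19, 48 and 24 without W1118 replicate 1, W1118 replicate 2, mutant replicate 1 and mutant replicate 2. Against attp2, 18 were higher and 48 lower. RpS19a went from 599.6 and 507 CPM to 999.7 and 1015 CPM (log2 0.87, adjusted p = 0.000327). It was chosen after its values were seen because no other setting ended its call. RpL8 went the other way, from 947 and 909.7 CPM to 469.7 and 539.7 CPM (log2 -0.88, SE 0.10, adjusted p = 5.76e-05), and it was also lower against attp2. Of 74 mitochondrial ribosomal protein genes 26 were higher (35.1%) and 0 lower, and 17 and 26 against attp2. With length removed 6 were higher and 3 lower, a share of higher calls below that of all tested genes. Left out in the order above, the libraries gave 7, 2, 15 and 9 in place of 26. mRpS34 had 29.6 and 27.4 CPM in W1118 and 62 and 56.6 CPM in the mutant (log2 1.06), and 57 CPM in attp2. Of 26 nuclear genes for oxidative phosphorylation 8 were higher and 0 lower, 3 and 1 with length removed and 7 and 11 against attp2, with 3, 4, 6 and 4 higher as the libraries were left out. CoVIIc, a cytochrome c oxidase subunit, rose by 0.76 and sun, an ATP synthase subunit, by 1.05, from 82.9 and 70.8 to 147 and 169 CPM. With length removed, the shares of oxidative phosphorylation and, below, of proteasome genes called higher did not exceed the 11.8% of all tested genes. Of 32 proteasome genes 9 were higher and 3 lower, and 2 and 3 with length removed, and the 9 were 4, 2, 7 and 6 as the libraries were left out. Of 6 histone variant genes 5 were higher and 0 lower, and 2 with length removed, with 1, 1, 2 and 4 as the libraries were left out.

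Small nuclear RNAs were called higher than in W1118 with and without the length trend, while against attp2 they were called in both directions. Among all tested genes 15.0% were higher and 11.8% lower, or 11.8% and 9.83% with length removed. Of 28 tested spliceosomal small nuclear RNA genes 22 were higher (78.6%) and 0 lower (median log2 1.09), and 17 and 0 with length removed (median 0.60). Against attp2, 13 were higher and 11 lower (median 0.02). Leaving out a library gave 19 to 21. U5 copies moved most. snRNA:U5:34A went from 13.4 and 16.4 CPM to 65.4 and 59 CPM (log2 2.04, SE 0.20, adjusted p = 2.06e-05) and snRNA:U5:38ABa from 6.18 and 9.04 CPM to 37.1 and 26.6 CPM (2.03). Copies of a small nuclear RNA are near-identical, so how reads were shared among them is uncertain, and the 22 genes are not 22 independent values. Of 221 small nucleolar RNA genes, which guide ribosomal RNA modification, 80 were higher (36.2%) and 15 lower (6.79%). It was 45 and 40 with length removed, and 85 and 43 against attp2. By biotype, 222 small nucleolar (median 135 bases) and 30 small nuclear RNA genes (154 bases) were tested. These made up a large part of the 277 tested genes of up to 300 bases. The trend removed at that length was therefore fitted largely on these genes themselves. Length and RNA class cannot be told apart in their corrected values. The count of 80 was 50 and 44 without W1118 replicate 1 and 2, without mutant replicate 1 55 and without mutant replicate 2 66. RNaseMRP:RNA, the RNA of an RNA-processing ribonuclease and the largest rise in CPM of any called gene, went from 6045 and 5947 to 9561 and 10454 CPM (log2 0.74). With length removed it rose by 0.30.

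**Figure D4:**
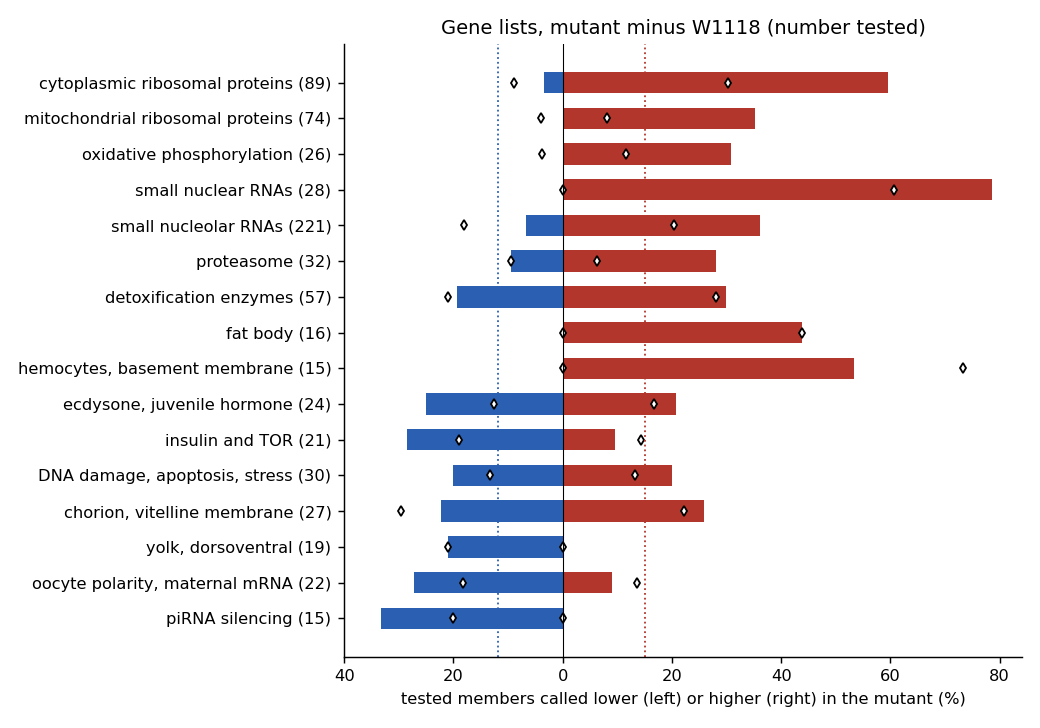
Share of the tested members of 16 gene lists that were called higher (red, right) or lower (blue, left) in the mutant, with the share after removal of the length trend as diamonds and the shares over all tested genes as dotted lines (15.0% and 11.8%). With the trend removed, higher calls number 27 in place of 53 for cytoplasmic and 6 in place of 26 for mitochondrial ribosomal proteins, and 17 in place of 22 for small nuclear RNAs.

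Maternal and oocyte genes changed in both directions. osk, whose RNA and protein found the germ plasm, was at 1564 and 1509.7 CPM in W1118 and at 890.2 and 898 CPM in mutant ovaries (log2 -0.78, SE 0.09, adjusted p = 8.17e-05). pgc, which holds transcription down in germ cells of the embryo, went the other way, from 238 and 252 to 437 and 499 CPM (log2 0.93, SE 0.15, adjusted p = 0.000752). BicD, an adaptor for RNA transport to the oocyte, fell by 0.49, from 475 and 467 to 329.6 and 342 CPM. ald, the meiotic kinase also called Mps1, fell by 0.57, from 63.3 and 61.9 to 41.6 and 42.6 CPM. In these 4 genes no setting ended the call. Among all tested genes 15.0% were higher and 11.8% lower, or 11.8% and 9.83% with length removed. Of 22 tested genes of oocyte polarity and maternal RNA control 2 were higher (9.09%) and 6 lower (27.3%), with a median log2 of -0.18. With length removed it was 3 and 4. Without W1118 replicate 1, W1118 replicate 2, mutant replicate 1 and mutant replicate 2 the count of 6 was 3, 2, 4 and 4. Of 19 genes of early germline differentiation 1 was higher and 4 lower, 3 and 1 with length removed, and with either W1118 library left out 0 were called, by edgeR, while leaving out either mutant library gave 1 higher and 1 lower.

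Genes of yolk and eggshell, listed as yolk and dorsoventral pathway genes and as eggshell genes, changed in both directions. Yp3, a yolk protein gene of follicle cells, went from 455 and 418 CPM to 132 and 106 CPM (log2 -1.87, SE 0.17, adjusted p = 1.58e-05), with 83.2 CPM in the mutant with Panx FL10B and 719 CPM in attp2. Yp1 (log2 -0.44, adjusted p = 0.218) and Yp2 (-0.29, adjusted p = 0.182) did not pass, although a fit of the 4 libraries alone called both lower. ndl, a protease gene of the dorsoventral pathway, went from 643 and 661 to 409 and 345 CPM (log2 -0.79), but was higher than in attp2 (0.37). Of 19 genes of yolk and the dorsoventral pathway 4 were lower and 0 higher, also with length removed, and 2, 2, 2 and 3 as the libraries were left out in the order above. For both lists the shares among all tested genes were 15.0% higher and 11.8% lower, or 11.8% and 9.83% with length removed. Of 27 eggshell genes 7 were higher (25.9%) and 6 lower (22.2%), with a median log2 of -0.01, and 6 and 8 with length removed. Without W1118 replicate 1 it was 5 and 5, and without mutant replicate 1 9 and 5. The late eggshell gene Muc4B went from 242 and 261 CPM to 576 and 630.4 CPM (log2 1.26, SE 0.12, adjusted p = 1.15e-05), and yellow-g, with a role in crosslinking of the vitelline membrane, from 65.1 and 66.8 to 122 and 142 CPM (1.00). The chorion gene Cp38 was at 2083 and 1978 CPM in W1118 and at 3724 and 5949.6 CPM in the mutant, and Cp7Fa at 119 and 128 and at 353 and 622 CPM. For both chorion genes mutant replicate 2 lay far above replicate 1, and a fit of the 4 libraries alone did not call them (adjusted p = 0.0551 and 0.0787). dec-1, an eggshell matrix gene and the largest fall in CPM of any called gene, went from 5005 and 4937 CPM to 3544 and 3246 CPM (log2 -0.55). Vml went from 1712 and 1505 to 956 and 914 CPM (-0.78). Against attp2, Cp38 was lower (-0.97) and dec-1 higher (0.32).

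**Figure D5:**
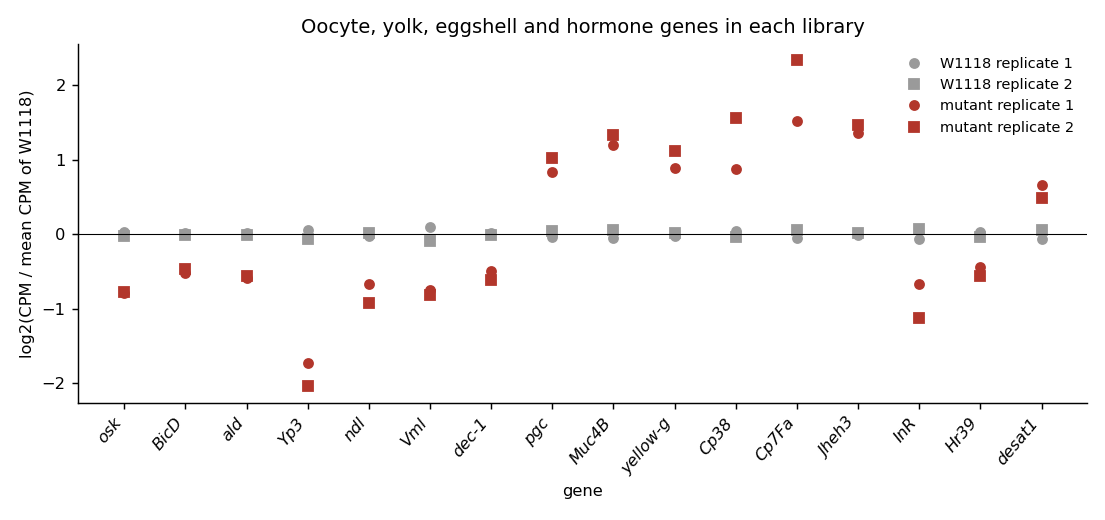
Level of 16 oocyte, yolk, eggshell, hormone and metabolic genes in each of the 4 libraries, as log2 of the CPM over the mean CPM of W1118 (grey, W1118; red, mutant; circles, replicate 1; squares, replicate 2). Each gene's mutant libraries lie on 1 side of its W1118 libraries, as in every called gene. The mutant libraries of the chorion genes Cp38 and Cp7Fa are widest apart.

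Hormone and growth genes were mixed, and their counts are read against the 15.0% of all tested genes called higher and 11.8% lower, or 11.8% and 9.83% with length removed. Jheh3, a juvenile hormone epoxide hydrolase that breaks the hormone down, went from 30.9 and 31.4 CPM to 79.9 and 85.8 CPM (log2 1.41, SE 0.13, adjusted p = 1.22e-05), and no setting ended this call. The nuclear receptor genes Hr46 (log2 -1.04, from 42.2 and 44.4 to 24.3 and 17.7 CPM) and Hr39 (-0.50, from 162 and 154 to 117 and 107 CPM) fell, but neither differed from attp2 beyond the threshold (-0.09 and -0.07). Of 24 genes of ecdysone and juvenile hormone synthesis and response 5 were higher (20.8%) and 6 lower (25%), and 4 and 3 with length removed, which is near the background. Without W1118 replicate 1, W1118 replicate 2, mutant replicate 1 and mutant replicate 2 the 5 were 2, 1, 2 and 3, and the 6 were 5, 4, 6 and 4. The insulin receptor gene InR went from 192 and 211 to 127 and 92.7 CPM (log2 -0.88, SE 0.15, adjusted p = 0.000911), and the insulin-like peptide gene Ilp6 from 6.18 and 7.04 to 30.1 and 16.6 CPM (1.81). Both matched attp2 more closely, at 101 and 17.4 CPM, and were not called against it. In the insulin and TOR list of 21 genes 2 were higher (9.52%) and 6 lower (28.6%), and 3 and 4 with length removed, with 2, 1, 1 and 3 lower as the libraries were left out in the same order. Of 30 genes of DNA damage, apoptosis and stress response 6 were higher and 6 lower (20% each), not far from the background, and 4 and 4 with length removed, and these were 2, 2, 2 and 5 higher and 3, 3, 3 and 7 lower with the same libraries left out. mu2, a telomere and repair gene, fell by 0.66, and its difference from attp2 did not pass (0.04, adjusted p = 0.79). Among metabolic genes desat1, a fatty acid desaturase, rose by 0.57, from 379 and 413 to 626 and 553 CPM, and the chaperone gene Hsc70-4 fell by 0.53, from 1781 and 1876 to 1314 and 1217 CPM, both under every setting tried.

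Genes of the nervous system were called about as often as genes in general. Of 34 tested genes of the nervous system and synapse 6 were higher (17.6%) and 5 lower (14.7%), against 15.0% and 11.8% of all tested genes, and 7 and 3 with length removed. Without W1118 replicate 1, W1118 replicate 2, mutant replicate 1 and mutant replicate 2 it was 5 and 4, 4 and 3, 6 and 3, and 6 and 4. Besides Sh and Syt4, the cell adhesion gene Dscam2 rose from 2.06 and 2.6 to 12.5 and 12.1 CPM (log2 2.36, SE 0.35, adjusted p = 0.00041), and it was also high in the knockdown, at 11.1 CPM against 0.646 CPM in attp2. Shaw, another potassium channel gene, was at 1.03 and 1.38 CPM in W1118 and at 203 and 37.5 CPM in the mutant, and the mutant libraries were far apart. Its call (adjusted p = 0.00449) was lost in the 4 libraries alone (0.162) and without W1118 replicate 2 (0.0524). The acetylcholine receptor gene nAcRalpha-80B fell from 23.4 and 24.2 to 8.27 and 7.27 CPM (log2 -1.61), and unc-13, a synaptic vesicle priming gene, from 430.3 and 455 to 196 and 163 CPM (-1.30). unc-13 was at 210.2 CPM in attp2 and not called against it. Of 24 developmental transcription factor genes 7 were higher (29.2%) and 2 lower (8.33%), 9 and 2 with length removed and 5 and 6 against attp2, and 4, 4, 5 and 5 higher as the libraries were left out in the same order. hkb, a terminal gap gene, had 3 counts in W1118 and 11.5 and 9.22 CPM in the mutant, a ratio of 36.3 (95% counting interval 12.2 to 178). It had no count in attp2 or the knockdown. By arm, genes at least 4-fold higher made up 3.7% of tested genes on 3R, 3.23% on 2L, 2.8% on 3L, 2.19% on 2R and 1.42% on X. Over all tested genes the share was 2.76%. On chromosome 4, 17 of 72 tested genes were lower and 5 higher. With length removed 10 were lower and 6 higher, where 9.83% and 11.8% of all tested genes were. The median exonic length was 3900 bases on chromosome 4 and 1948 to 2317 bases on the other arms.

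Summed markers of fat body and hemocytes were higher in the mutant libraries than in W1118 and differed between the mutant libraries, and the summed lists of both tissues were also higher in the wild-type stock attp2 than in W1118. The summed level of 10 fat body markers was 77.97 and 79.48 CPM in W1118 and 261.6 and 121 CPM in the mutant, with 4 of 10 tested markers higher, 0 lower and Fbp2 at 0 in these 4 libraries. Lsp2, a larval serum protein gene, was among the markers that separated the mutant libraries, at 30.7 and 2.08 CPM, and its call (adjusted p = 0.0257) was lost without either W1118 library (0.111 and 0.176). The 10 hemocyte markers summed to 313.7 and 306.1 CPM in W1118 and to 614.6 and 469.3 CPM in the mutant, with 5 of 7 tested higher. In the wider lists, 7 of 16 fat body genes, 8 of 15 hemocyte and basement membrane genes and 5 of 20 antimicrobial and immune genes were higher and 0 lower. These were 43.8%, 53.3% and 25%, where 15.0% of all tested genes were higher and 11.8% lower. With length removed, 7, 11 and 3 were higher, where 11.8% of all tested genes were, so the immune count was then near the background. The fat body list summed to 235.5 and 242.9 CPM in W1118, 428.5 and 295.3 CPM in the mutant and 639.5 and 344.5 CPM in attp2, and the hemocyte list to 1143 and 1154, 1748 and 1406, and 1689 and 1364 CPM in the same groups. Against attp2, 4 fat body genes were higher and 3 lower (median log2 -0.01), 3 hemocyte genes higher and 1 lower, and 5 immune genes higher and 2 lower. As the libraries were left out in the order above, the fat body count was 4, 3, 4 and 8, the hemocyte count 4, 3, 5 and 7 and the immune count 1, 2, 2 and 4. proPO-A1, a prophenoloxidase gene of blood cells, had 1 count in W1118 and 4.36 and 2.6 CPM in the mutant, a ratio of 36.9 (95% counting interval 6.37 to 1480). The muscle markers summed to 1247 and 1291 CPM in W1118 and to 1415 and 1097 CPM in the mutant, and 19 of 21 tested muscle genes were higher in mutant replicate 1 than in replicate 2. Germline markers summed to 5033 and 4923 CPM and then 3969.9 and 4038 CPM, and follicle cell markers to 9586 and 9179 CPM and then 7503 and 8309 CPM. Midgut markers stayed at or under 1.57 CPM in sum. Of 11 testis markers 5 were at 0, and all 11 summed to 65.6 and 57.6 CPM in W1118 and to 55.8 and 50.6 CPM in the mutant. Of the 4 tested testis markers 1 was lower and 0 higher. Of 4 tested markers of oviduct, spermatheca and accessory glands 1 was higher and 3 lower, and of 6 tested reproductive tract genes 2 were higher and 4 lower (median log2 -0.66), and 2 and 3 with length removed. The part that attached tissue had in the results for fat body, hemocyte, immune and detoxification genes was not tested. Acp26Aa, known as a male accessory gland gene, had 2 counts in W1118 and 5.03 and 2.21 CPM in the mutant, a ratio of 19.4 (95% counting interval 5.15 to 164), and the octopamine receptor gene Octbeta2R fell from 16.5 and 15.6 to 7.04 and 6.49 CPM (log2 -1.24).

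The effect of the mutant was also set against that of the germline knockdown in the same fit. The difference of the 2 effects was called for 2331 genes, 27.0% of those tested, with 1252 higher (14.5%) and 1079 lower (12.5%). With the length trends removed, which slope in opposite directions in the 2 comparisons, the total was 1380. It was 1425 without W1118 replicate 1 and 1287 without W1118 replicate 2. For nxf2 itself the difference of the effects did not pass (log2 0.11, SE 0.21, adjusted p = 0.729), whereas for CG42514 (-2.32, adjusted p = 0.000301) and tra (-0.94, adjusted p = 0.0252) near it the difference passed. The mutant and W1118, and the knockdown and attp2, also differ in stock, so the mutation and the germline knockdown cannot be told apart from their stocks.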

How the data were processed

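RNA-seq libraries from total ovary RNA (12 libraries, 6 groups of 2) were deposited as raw counts per gene in 1 table. Per the submitters' processing notes, STAR 2.5.2a, cutadapt 1.16, bcl2fastq 1.8.4 and, for the 8 libraries without Panx FL10B, deepTools 2.5.7 and featureCounts 1.6.1 were used with build dm3. Here, 8638 of 15446 genes passed edgeR's filterByExpr, and edgeR 4.0.16 (R 4.3.3; TMM scaling, robust quasi-likelihood fit) was run on all 12 libraries with 1 mean per group (6 residual degrees of freedom). P-values were adjusted by Benjamini-Hochberg over all tested genes, with a threshold of 0.05. Counting intervals and the floor of 3 counts cover counting error only. The scripts were tested on simulated data. Alternatives were other scalings, filters, libraries and controls, DESeq2 1.42.0, a replicate block, and a length correction added after the data were seen. Gene order, arms and lengths came from RefSeq Release 6 and Ensembl BDGP6 by name (11696 genes by symbol, 3309 by synonym, 441 unmatched), and no coordinates are given since the builds differ. Named genes were the largest rises and falls, in fold and in CPM, the 2 called members of each list with the smallest p in each direction, genes whose effect differed most from the knockdown, and members of runs. The members and lists were chosen with earlier results of these data known. Several list memberships were corrected, and lists of small nuclear RNAs and histone variants added, after values were seen. CG33158, Smn, l(3)73Ah, tra, CG32164, RpS19a, CoVIIc, Yp1, Yp2, Cp7Fa, Hr46, Shaw and Lsp2 fell outside the rule and were chosen after their values were seen.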

Additional observations from a re-analysis of the deposited data

Results flagged for a closer look

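For 8 genes the mutant effect and the knockdown effect differed by edgeR's test of the difference itself, and these were the largest such differences in each direction among genes with at least 10 CPM in 1 of the 4 groups, as log2 of the mutant effect minus the knockdown effect. The difference was 14.82 for dys, 12.5 for CG9766, 11.72 for Gyc-89Da and 11.65 for CG1090. In the other direction it was -8.95 for Dfd, -8.35 for CG42255, -4.32 for CG4562 and -4.26 for mthl8. Where a group had no count, the fitted value depends on the prior count and is no bound.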

How the results depend on the processing

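Of the 2318 calls, 2260 stayed in the same direction in the 4 libraries alone, 1870 with DESeq2, 1539 with length removed and 1048 against attp2, where 391 turned. The total was 1545 in the 8 libraries without Panx FL10B, 4849 against attp2 and 3620 against the mean of both controls, and 835 to 1698 with each library left out. Higher calls (1297) were 2323 against attp2 and 503 to 1003 with a library left out. Lower calls (1021) were 556 in the 8 libraries, 2526 against attp2, 1699 against the mean of both controls and 332 to 695 with a library left out. The difference from the knockdown (2331 genes) was called for 1518 genes in the 8 libraries, 1380 with length removed and 1287 to 3296 with each library left out. Replicate numbers did not pair the libraries (correlation of deviations -0.0348), and with a replicate block 2312 genes were called. Against attp2 the log2 fold change turned for piwi (-2.08), GstD1 (-0.31), RNaseMRP:RNA (-0.08), ndl (0.37), Cp38 (-0.97), Cp7Fa (-0.51), dec-1 (0.32), InR (0.13) and mu2 (0.04), and against the mean of both controls for piwi (-0.99). The cause was not tested. Over all alternatives, values of the named genes stayed on their side of the threshold 1248 times, lost the call 36 times, gained it 7 times and turned 10 times. W1118 replicate 1 had the fewest counts, 3811630, which limits the precision of genes at a few counts.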
